A study of Mus musculus with 4 samples.

Results

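The barcodes described here are stromal barcodes of mouse brown adipose tissue that were rich in 4 transcripts, the long non-coding RNAs Meg3 and Kcnq1ot1, the splicing regulator Nova1 and the transcription factor Creb5. A barcode was a member when these 4 genes together reached at least 30 of every 10,000 of its UMIs (unique molecular identifiers, each counting 1 captured transcript). Members also had to carry under 20 per 10,000 UMIs of the macrophage genes Lyz2, C1qa, C1qb and C1qc and under 20 per 10,000 of the endothelial genes Cdh5, Cldn5 and Gpihbp1. Quality limits kept barcodes with 251 to 5999 genes, 501 to 29999 UMIs and under 15% mitochondrial UMIs. Of 50581 deposited barcodes 28887 passed these limits, and 3405 of them were members. Members were selected on their measured levels of Meg3, Creb5, Nova1 and Kcnq1ot1, so these levels, and those of every other gene in the same barcodes against the remaining stromal barcodes, are given as a description without a test.

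The study profiled single cells of the stromal vascular fraction (SVF), the non-adipocyte cells released when brown adipose tissue (BAT) is digested, after cell sorting. It set lean mice beside 2 forms of obesity, a leptin receptor mutation and a high-fat diet. Each group was 1 library of pooled mice. The groups were WT, wild-type mice aged 10 weeks; db/db 8w and db/db 16w, mice with the Lepr db mutation aged 8 and 16 weeks; and HFD, wild-type mice on high-fat diet, labelled as 10 weeks. The methods state that the diet began at 10 weeks and lasted 10 weeks, so the age of the HFD mice is not settled here. All 4 libraries were labelled C57BL6/J, with db/db described in the methods as B6.BKS(D)-Lepr db/J. Age differed between the groups together with genotype or diet, and these cannot be told apart. The methods describe male mice, which sex-linked transcripts of the db/db 16w library go against, as given below. With 1 library per group no difference between groups could be tested, and the intervals below are exact 95% intervals that cover counting error only. Every comparison of an obese library with WT used the same WT library.

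Meg3 is a maternally expressed long non-coding RNA of the imprinted Dlk1-Dio3 region, from which Rian, Mirg and many microRNAs are transcribed in the same direction, and it is found mostly in the nucleus. Kcnq1ot1 is a paternally expressed antisense RNA that stays at its own imprinted locus, where it silences neighbouring genes in cis. Nova1 encodes a neuronal type RNA-binding protein that directs alternative splicing, and Creb5 a basic leucine zipper factor of the CREB/ATF family that binds cyclic AMP response elements. In adipose tissue, Pdgfra-positive stromal cells range from Pi16 and Dpp4 positive progenitors, which lie in the fibrous reticular interstitium, to committed preadipocytes that express Pparg and basement membrane collagens. A barcode rich in nuclear RNAs such as Malat1 and poor in ribosomal protein mRNAs is usually taken to hold relatively little cytoplasmic mRNA.

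The 4 genes that chose the members lie on 3 chromosomes in GRCm38. Meg3 spans chromosome 12, 109541001 to 109571726 on the plus strand. Rian starts 32.2 kb after its end and B830012L14Rik, a further non-coding transcript on the same strand, 124 kb after it. Nova1 lies on the same chromosome at 46694517 to 46818929 on the minus strand, Creb5 on chromosome 6 at 53287270 to 53700376 on the plus strand, and Kcnq1ot1 on chromosome 7 at 143203458 to 143296549 on the minus strand. Creb5 is the longest of them, at 413 kb, against 124 kb for Nova1 and 93.1 kb for Kcnq1ot1.

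The promoters of Meg3 and Creb5 are shown because both hold the full palindromic cyclic AMP response element TGACGTCA, the sequence that Creb5 and its relatives are known to bind. The sequences are RefSeq promoters of GRCm38.p6, running from 250 bases before the annotated start to 50 bases after it, on the plus strand, with the element in capitals. The Meg3 promoter is chr12:109540746-109541045, with the element starting 57 bases upstream of the start, and the Creb5 promoter is chr6:53287053-53287352, with the element 45 bases upstream.
Meg3: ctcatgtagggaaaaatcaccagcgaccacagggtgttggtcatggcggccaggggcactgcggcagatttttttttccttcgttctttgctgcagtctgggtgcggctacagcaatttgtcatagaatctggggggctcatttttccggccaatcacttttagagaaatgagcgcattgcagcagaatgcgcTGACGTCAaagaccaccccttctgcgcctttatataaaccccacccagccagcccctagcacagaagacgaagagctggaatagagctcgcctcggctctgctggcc
Creb5: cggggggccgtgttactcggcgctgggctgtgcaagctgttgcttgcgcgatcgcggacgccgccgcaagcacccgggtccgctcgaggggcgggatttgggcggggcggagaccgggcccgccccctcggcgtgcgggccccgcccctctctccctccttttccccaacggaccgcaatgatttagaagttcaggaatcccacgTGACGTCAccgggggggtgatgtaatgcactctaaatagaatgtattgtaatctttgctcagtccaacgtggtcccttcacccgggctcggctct
The element, whose reverse complement is itself, was found in 588 of 32851 promoters of 300 bases (1.79%). It was not in the listed windows of Nova1, Kcnq1ot1, Rian, Mirg or Malat1, nor in a further window each of Meg3 and Creb5. A match in a window is a description of its letters, and no binding was measured.

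The libraries held 51357400 UMIs in WT, 57279299 in HFD, 61828295 in db/db 8w and 28504069 in db/db 16w before any filter. Between 16 and 97 barcode sequences were shared by each pair of libraries, and 3 of them were members in both WT and db/db 8w. The db/db 16w library stood apart from the others. Its members carried Xist, the RNA of the inactive X chromosome, at 829 CPM (UMIs per 1000000 UMIs of the class, here 122 UMIs), against 0.339 CPM in the WT members, 0.506 CPM in the HFD members and 1.12 CPM in the db/db 8w members. Transcripts of 4 Y-linked genes were at 74.8 CPM there (11 UMIs), against 204 to 229 CPM in the members of the other 3 libraries. The methods describe male mice, and the level of Xist in the db/db 16w library goes against this. Sex therefore cannot be told apart from genotype and age where db/db 16w is set beside another library. Lepr itself had 8 UMIs in the db/db 8w members and 0 in those of the other 3 libraries, too few to check the genotype.

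Members made up 26.5% of the quality-passing barcodes in WT (1573 of 5944, interval 25.3 to 27.6%). They were 12.0% in db/db 8w (1393 of 11648, 11.4 to 12.6%), 6.66% in HFD (364 of 5462, 6.02 to 7.36%) and 1.29% in db/db 16w (75 of 5833, 1.01 to 1.61%). WT thus held the highest share, db/db 16w the lowest, and the 4 counting intervals did not overlap. The remaining barcodes that passed the same macrophage and endothelial limits and carried at least 30 per 10,000 UMIs of 5 stromal genes are called other stromal barcodes. The 5 genes were Pdgfra, Col1a1, Col1a2, Col3a1 and Dcn. Other stromal barcodes numbered 2739 in WT, 1201 in HFD, 4362 in db/db 8w and 1104 in db/db 16w. Of the members and other stromal barcodes together, members were 36.5% in WT (35.04 to 37.9%), 23.3% in HFD (21.2 to 25.4%), 24.2% in db/db 8w (23.1 to 25.3%) and just 6.36% in db/db 16w (5.04 to 7.91%). Within the stromal barcodes db/db 8w and HFD were therefore not separated beyond counting error. The first denominator also counts macrophages and the other sorted cells, whereas the second does not.

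**Figure D1:**
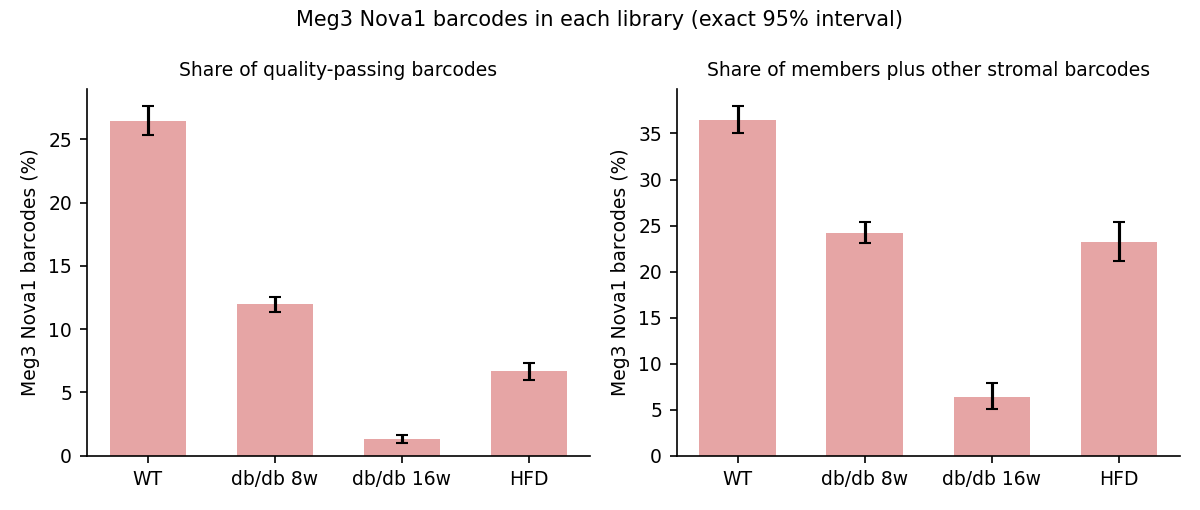
Percent of barcodes that were members in each library, over all quality-passing barcodes and over members plus other stromal barcodes, with exact 95% intervals for counting error (1 library per group). On both denominators WT is highest (26.5% and 36.5%) and db/db 16w lowest (1.29% and 6.36%), while db/db 8w and HFD overlap on the stromal denominator only.

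The mitochondrial limit bore on these shares. Among barcodes over 15% mitochondrial UMIs that passed the other limits, the gene rule was met by 614 of 1615 in WT (38.0%), 610 of 6166 in db/db 8w (9.89%), 1 of 55 in db/db 16w and 420 of 11948 in HFD (3.52%). With them included, the share was 28.9% in WT, 4.50% in HFD and 11.2% in db/db 8w, and the order of the libraries stayed as above.

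Meg3 led the 4 genes in every library. It stood at 2934 CPM in the WT members, 3232 CPM in those of db/db 8w, 4099 CPM in those of db/db 16w and 3249 CPM in those of HFD, against 630, 821, 487 and 841 CPM in the other stromal barcodes of the same libraries. The rule set a floor under the sum of the 4 genes, of which Meg3 was the largest part, so a similar level in the members of all libraries follows from the choice. The other 3 genes varied more. Creb5 was at 881 CPM in the WT members, 710 CPM in those of db/db 8w, 68.0 CPM in those of db/db 16w (10 UMIs) and 285 CPM in those of HFD. Nova1 was at 612, 292, 163 and 101 CPM in the same order, and Kcnq1ot1 at 856, 555, 211 and 736 CPM. Both Creb5 and Nova1 were thus highest in the WT members, with Creb5 lowest in db/db 16w and Nova1 lowest in HFD. The kinds of barcode among the members differed between libraries, however, and among the progenitor-rich members described below Creb5 was at 939 CPM for WT, 1070 CPM for db/db 8w and 1059 CPM for HFD. WT was not highest in that kind of barcode for Creb5, but was for Nova1, at 648, 380 and 260 CPM. As a result Meg3 gave 55.5, 67.5, 90.3 and 74.3% of the summed UMIs of the 4 genes, again in that order.

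In the other stromal barcodes Creb5 and Nova1 were also highest in WT, and both were lowest in db/db 16w. There Creb5 was at 350, 191, 36.1 and 84.3 CPM and Nova1 at 248, 113, 33.9 and 54.8 CPM, listed in the same order of libraries. Kcnq1ot1 was at 207, 170, 33.5 and 388 CPM, so that outside the members HFD, not WT, had the highest level. Set against the WT members on a log2 scale with 10 CPM added to both sides, Creb5 differed by -1.60 in HFD, -0.31 in db/db 8w and -3.51 in db/db 16w, and Nova1 by -2.49, -1.05 and -1.85. The difference of Meg3 was 0.15, 0.14 and 0.48. In macrophage-rich barcodes of the same libraries Meg3 was at 21.7 CPM in WT, 10.4 CPM in HFD, 19.3 in db/db 8w and 1.39 in db/db 16w.

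**Figure D2:**
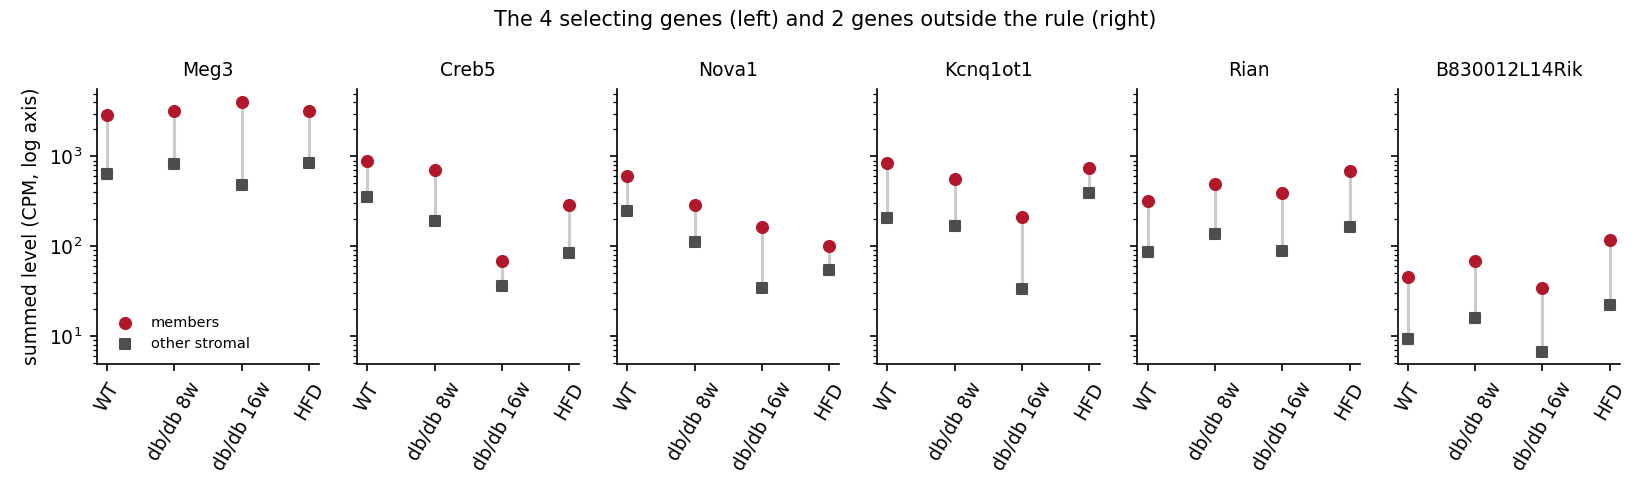
Levels of the 4 selecting genes and of Rian and B830012L14Rik in members and other stromal barcodes of each library, in CPM of the summed UMIs on a log axis, 1 library per group. Meg3 lies between 2934 and 4099 CPM in the members of all libraries, Creb5 and Nova1 are highest in the WT members, and Rian and B830012L14Rik, which the rule did not use, lie higher in the members of each library.

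The number of the 4 genes seen in a member differed between libraries. All 4 genes were seen in 68.8% of the WT members, 32.2% in db/db 8w, 21.2% in HFD and 4.00% in db/db 16w, whereas a single one was seen in 1.081%, 9.05%, 6.32% and 49.3%. Meg3 had the most UMIs of the 4 in 66.8% of the members in WT, 79.0% in those of db/db 8w, 98.7% in those of db/db 16w and 89.0% in those of HFD. The call rested on few molecules in the shallower libraries, with a median of 23 UMIs of the 4 genes per member in WT, 21 in HFD, 15 in db/db 8w and 7 in db/db 16w. It rested on 3 UMIs or fewer for 0.636%, 0%, 6.96% and 10.7% of the members.

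Barcodes were numerous on both sides of the threshold. Between 30 and 35 per 10,000 there were 265 members in WT, 303 in those of db/db 8w, 24 in those of db/db 16w and 106 in those of HFD, and between 25 and 30, just outside, there were 293, 408, 33 and 143 barcodes. The median sum just inside was 32.5, 32.3, 32.1 and 32.0 per 10,000, and just outside 27.3, 27.3, 26.7 and 27.1. Malat1 was close on both sides in WT (35856 CPM inside, 32169 CPM outside), in db/db 8w (42103 and 41141 CPM) and in HFD (39748 and 40713 CPM), and apart in db/db 16w (69100 and 31314 CPM).

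Members were shallower than the other stromal barcodes, except in HFD. Their median was 3964 UMIs in WT, 5058 in HFD, 2911 in db/db 8w and 1650 in db/db 16w, against 8916, 4994, 3962 and 2866.5 UMIs in the other stromal barcodes. Their median mitochondrial share was 6.96%, 9.47%, 6.49% and 1.06%, against 2.61%, 9.88%, 4.71% and 0.408%. To set depth aside, each barcode was thinned to 1000 UMIs, leaving out shallower ones. Meg3 was then seen in 84.6% of the WT members, 92.1% in those of db/db 8w, 100% in those of db/db 16w and 92.0% in those of HFD, and in 40.0%, 48.5%, 33.4% and 47.4% of the other stromal barcodes. In macrophage-rich barcodes, which should lack the gene and had median depths of 6258.5, 5151, 4334.5 and 5444 UMIs, the thinned share was 2.11%, 1.95%, 0.0988% and 0.570%. Meg3 in the other stromal barcodes therefore lay well above the level in macrophage-rich barcodes.

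The stromal part of the name held for most members. At least 30 per 10,000 UMIs of the 5 stromal genes were carried by 99.9% of the members in WT, 99.4% in those of db/db 8w, 94.7% in those of db/db 16w and 98.9% in those of HFD, although the rule had not asked for it. Pdgfra, the receptor that marks adipose stromal cells, was at 766, 654, 1142 and 440 CPM in the members, and Col1a1, a fibrillar collagen, at 7701, 8689, 15116 and 6521 CPM. In db/db 16w, however, 12 of the 75 members were rich in mural genes, described below, with Pdgfra at 0 and Col1a1 at 156 CPM. The mural list summed to 9.14, 19.2, 1788 and 280 CPM in the members. Markers of other cell types were low but not at 0. The summed macrophage list was at 105, 224, 61.2 and 624 CPM in the members and at 100, 373, 503 and 616 CPM in the other stromal barcodes, within limits the rule had set. Endothelial markers summed to 5.08, 37.6, 68.0 and 166 CPM, neuronal markers to 3.39, 7.63, 81.6 (12 UMIs) and 24.8 CPM, and Schwann cell markers to 84.1, 41.5, 34.0 (5 UMIs) and 33.9 CPM. Of the 6 neuronal markers, Snap25 and Stmn2 had 0 UMIs in the WT members, Syt1 1, Nefl 2, Tubb3 6 and Rbfox3 21. Adipocyte markers summed to 58.9, 55.1, 197 (29 UMIs) and 139 CPM. Skeletal muscle and mesothelial markers did not exceed 13.1 CPM in sum and T and B cell markers 4.05 CPM in any library. Their part in the levels reported here was not tested. Predicted doublets were 5.91% of the members in WT, 9.12% in those of db/db 8w, 0% in those of db/db 16w and 6.04% in those of HFD, against 6.79%, 12.5%, 6.25% and 11.7% of the other stromal barcodes, and they were kept.

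The genes beside Meg3 in the Dlk1-Dio3 region followed it. Rian, a non-coding RNA that hosts small nucleolar RNAs, was at 319 CPM in the WT members, 492 CPM in those of db/db 8w, 387 CPM in those of db/db 16w (57 UMIs) and 684 CPM in those of HFD, against 87.2, 137, 88.8 and 166 CPM in the other stromal barcodes. On the log2 scale with 10 CPM added, the difference was 1.76, 1.77, 2.01 and 1.98. B830012L14Rik was at 45.6, 68.6, 34.0 (5 UMIs) and 117 CPM against 9.27, 15.8, 6.64 and 22.3 CPM. Of 5213 genes outside the rule that reached 20 CPM in members or other stromal barcodes of all 4 libraries, Rian and B830012L14Rik were the only ones at least 2-fold higher in the members of each library, and 0 were at least 2-fold lower in each. Mirg, the microRNA host further along, was at 16.7, 26.2, 27.2 (4 UMIs) and 26.3 CPM against 4.83, 7.97, 3.32 and 7.08 CPM. The protein-coding genes of the region were low. Dlk1, which encodes an inhibitor of adipocyte differentiation and is expressed from the other parental chromosome, had 2, 27, 5 and 2 UMIs in the members, and Dio3, a thyroid hormone deiodinase, had 0, 2, 0 and 10. B830012L14Rik, Mirg and Rian lie on the same strand as Meg3, and whether separate transcripts or reads from 1 long transcript were counted was not tested.

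Rian was also seen more often per barcode, in 57.5% of the WT members, 60.4% in those of db/db 8w, 36.0% in those of db/db 16w and 78.0% in those of HFD, against 37.9%, 32.1%, 20.4% and 35.6% of the other stromal barcodes. The HFD members, of about the same depth as their counterparts, thus showed the widest gap in this share. To see how far Meg3 had chosen itself, members were chosen again on Creb5, Nova1 and Kcnq1ot1 alone, with the same threshold of 30. This left 635 members in WT, 31 in HFD, 271 in db/db 8w and 1 in db/db 16w. These were by construction all among the members already described, since adding Meg3 can only raise the sum. Meg3, which then took no part in the choice, was at 2983 CPM against 1095 CPM in WT (log2 difference 1.44), 3055 against 1261 CPM in db/db 8w (1.27) and 1801 against 1394 CPM in HFD (0.37). Rian differed by 1.56, 1.499 and 0.21 in the same libraries. Meg3 and Rian were thus raised in barcodes rich in the other 3 genes in WT and db/db 8w, and by much less in the 31 HFD barcodes.

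At the imprinted locus of Kcnq1ot1 few neighbouring genes reached 20 CPM. The summed level of 10 genes of the locus differed by -0.23 in WT, 0.03 in HFD, -0.21 in db/db 8w and 0.30 in db/db 16w, and none was past 2-fold in any library among the 4 that reached 20 CPM. Cdkn1c, a cell cycle inhibitor that Kcnq1ot1 is known to silence on the paternal chromosome, was at 99.9 CPM in the WT members, 120 CPM in those of db/db 8w, 190 CPM in those of db/db 16w (28 UMIs) and 137 CPM in those of HFD, against 118, 105, 154 and 119 CPM in the other stromal barcodes. Cd81, a tetraspanin that gave most of the summed level of the locus, was at 272, 331, 727 and 537 CPM against 327, 415, 569 and 541 CPM. Imprinted genes of other regions were 15 in number, and of those tested 0 of 7 in WT, 0 of 9 in db/db 8w and 0 of 9 in HFD were past 2-fold either way, while 7 of 11 in db/db 16w were past 2-fold higher and 0 lower. Over all genes tested, 0.692% were past 2-fold higher and 0.661% lower in WT, 1.10% and 0.471% in db/db 8w, 13.0% and 7.43% in db/db 16w, and 0.631% and 0.126% in HFD. Beside such shares a count of 0 of 4 at the Kcnq1ot1 locus, or of 0 of 7 or 0 of 9, does not set the imprinted genes apart from other genes. Peg3, a paternally expressed zinc finger gene, was at 125, 308 and 372 CPM in the members of WT, db/db 8w and HFD against 154, 371 and 425 CPM, and at 863 against 280 CPM in db/db 16w (127 UMIs). H19, a maternally expressed non-coding RNA beside Igf2, was at 13.0 CPM in the WT members, 22.7 CPM in those of db/db 8w, 47.6 CPM in those of db/db 16w (7 UMIs) and 22.3 CPM in those of HFD, against 3.50, 10.5, 6.88 and 7.85 CPM, a log2 difference of 0.77, 0.67, 1.77 and 0.85. H19 was thus higher in the members of each library, though under 20 CPM in both classes of WT. Plagl1 below, Grb10, Sgce, Impact and Snrpn were also higher in each, by as little as 0.03 for Sgce in HFD. Peg3, Ndn and Zim1 were higher in db/db 16w alone and lower in the other libraries, so the list went both ways.

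The nuclear RNA part of the name held in 3 of the 4 libraries. Malat1, an abundant RNA of nuclear speckles, was at 54100 CPM in the WT members against 21708 CPM in the other stromal barcodes, at 54050 against 33237 CPM in db/db 8w and at 78075 against 21896 CPM in db/db 16w, but at 41346 against 39283 CPM in HFD. The log2 difference was 1.32, 0.70, 1.83 and 0.07. The median share of Malat1 in a single member was 6.54%, 4.94%, 6.26% and 3.90% in the same order, against 1.67%, 2.78%, 1.33% and 3.82%. Neat1, the scaffold of paraspeckles, was at 1414, 1095, 360 and 747 CPM against 574, 566, 116 and 623 CPM. Here too the HFD members lay closest to the other stromal barcodes. Mir99ahg and Mir100hg, host transcripts of microRNA clusters, differed by 1.15 and 1.34 in WT, 0.66 and 0.91 in db/db 8w, 1.36 and 1.29 in db/db 16w, and -0.04 and 0.22 in HFD.

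Of the list of nuclear-retained RNAs, 7 of 12 tested were past 2-fold higher in the WT members, 3 of 12 in db/db 8w, 13 of 15 in db/db 16w and 2 of 11 in HFD, and 0 were past 2-fold lower in any library, beside 0.692%, 1.10%, 13.0% and 0.631% of all genes higher. The median log2 difference of the list was 1.21, 0.78, 1.36 and 0.11, beside 0.15, 0.06, 0.32 and -0.02 over all genes. In HFD both genes past 2-fold were Rian and Mirg, neighbours of Meg3. In db/db 8w the 3 were these same neighbours and Miat, while Malat1 (0.70) and Neat1 (0.94) were under 2-fold. In db/db 16w 20 CPM is about 3 UMIs of the members, and its share of all genes past 2-fold was the highest of the 4 libraries. The summed list differed by 0.55, 0.56, 1.51 and 0.02. Gm42418, which overlaps a ribosomal RNA repeat, gave 87540 of its 145722 CPM in the WT members, 73088 of 130821 CPM in those of db/db 8w, 32326 of 112121 CPM in those of db/db 16w and 41755 of 86207 CPM in those of HFD. Without Gm42418 and AY036118 the sums differed by 1.32, 0.72, 1.83 and 0.10.

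Ribosomal protein genes, whose mRNAs are abundant in the cytoplasm, ran the opposite way. They gave 9.70% of the summed UMIs in the WT members, 10.3% in those of db/db 8w, 8.69% in those of db/db 16w and 9.19% in those of HFD, against 16.2%, 13.9%, 19.9% and 9.43% in the other stromal barcodes. The median share in a single member was 3.33% in WT against 15.6% in the other stromal barcodes, 6.98% against 12.8% in db/db 8w, 6.05% against 18.6% in db/db 16w and 8.87% against 8.52% in HFD. The members of WT, db/db 8w and db/db 16w were thus poor in these mRNAs and the HFD members were not. Other stable cytoplasmic mRNAs followed, with sums that differed by -0.64, -0.42, -0.94 and -0.09. Of 19 tested, 9 were past 2-fold lower in db/db 16w, where 7.43% of all genes were. In WT, db/db 8w and HFD 0 were, beside 0.661%, 0.471% and 0.126% of all genes, so 0 of 19 does not set these mRNAs apart there. Eef1a1, the elongation factor that brings tRNA to the ribosome, was at 3298, 2566, 2161 and 2531 CPM against 5101, 3256, 3078 and 2431 CPM. Long non-coding RNA genes gave 15.8% of UMIs against 10.8% in WT, 14.3% against 9.70% in db/db 8w, 12.7% against 5.10% in db/db 16w and 9.81% against 9.40% in HFD. Genes spanning over 100 kb gave 11.6% against 8.37%, 10.6% against 8.64%, 11.1% against 7.44% and 10.4% against 10.1% in the same order. Whether intronic reads were counted is not given in the sources used here, and its part in these shares was not tested.

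These features moved with depth inside the members. WT members of 1001 to 2000 UMIs had Malat1 at 99575 CPM, 2.61% ribosomal protein UMIs and a median of 11.6% mitochondrial UMIs. WT members of 8001 to 29999 UMIs had Malat1 at 31518 CPM, 14.9% ribosomal protein UMIs and 2.41% mitochondrial UMIs. Members under 1001 UMIs had Malat1 at 80252 CPM, so that Malat1 and mitochondrial transcripts were highest at 1001 to 2000 UMIs. In db/db 8w the same bins ran from 86229 to 34300 CPM of Malat1, and in HFD, from 2001 to 4000 UMIs up to the deepest bin, from 45191 to 36414 CPM. Meg3 changed less, from 4151 to 2722 CPM in WT, 3165 to 3574 CPM in HFD and 4025 to 3138 CPM in db/db 8w. When the other stromal barcodes were weighted to the depth of the members, the log2 difference of Malat1 was 1.10 in WT, 0.08 in HFD, 0.59 in db/db 8w and 1.29 in db/db 16w. The summed nuclear-retained list fell further, to 0.17 in WT, with 0.03 in HFD, 0.39 in db/db 8w and 0.78 in db/db 16w. The mitochondrial share and depth of a barcode moved together with its Malat1, and their part in it was not tested.

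**Figure D3:**
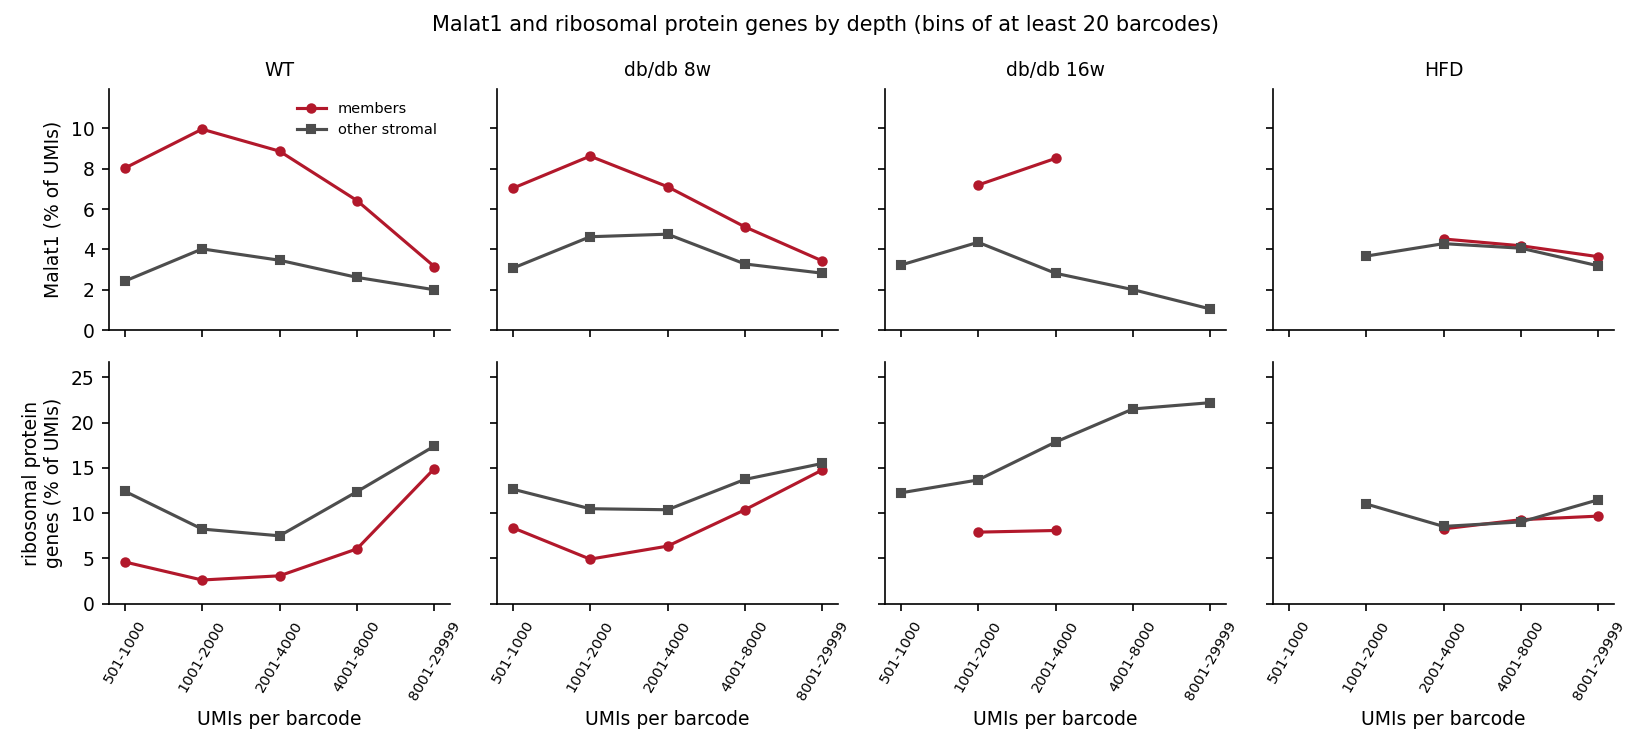
Malat1 and ribosomal protein genes as percent of UMIs (1% is 10,000 CPM) by UMI bin for members and other stromal barcodes of each library, bins with fewer than 20 members left out. In the WT members Malat1 falls from 99575 CPM at 1001 to 2000 UMIs to 31518 CPM above 8000 UMIs while ribosomal protein UMIs rise from 2.61% to 14.9%, and in HFD members and other stromal barcodes lie close together.

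Splicing and chromatin regulators were higher in sum in the members of WT, db/db 8w and db/db 16w. The summed level of splicing regulators, without Nova1, differed by 0.63 in WT, -0.06 in HFD, 0.31 in db/db 8w and 0.68 in db/db 16w, with 1, 0, 0 and 6 of 28 tested past 2-fold higher and 0 lower in each, where 0.692%, 0.631%, 1.10% and 13.0% of all genes were past 2-fold higher. Their median difference was 0.57, -0.06, 0.29 and 0.67, against 0.15, -0.02, 0.06 and 0.32 over all genes. Chromatin regulators differed by 0.56, -0.02, 0.37 and 0.77, with 0, 0, 0 and 5 of 23 past 2-fold higher and 0 lower. Relatives of Creb5 in the CREB, ATF and AP-1 families differed by -0.24, -0.02, -0.46 and -0.81 in sum and by 0.11, -0.02, -0.17 and -0.24 in the median. Most of that sum came from the AP-1 genes Fos, Jun, Junb and Jund, of which the first 3 are also among the immediate-early genes. Creb1 and Atf7, both CREB/ATF factors, differed by 0.62 and 0.58 in WT, -0.38 and -0.02 in HFD, 0.48 and 0.38 in db/db 8w, and 0.52 and 0.58 in db/db 16w (6 and 14 UMIs), so that the family did not move one way. Immediate-early and heat-shock genes, which respond to tissue dissociation, stood at -0.20, -0.03, -0.40 and -1.53. In HFD none of these 4 lists differed by more than 0.06 in sum.

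Progenitor genes were higher in sum in the members of db/db 8w and HFD, slightly higher in WT and lower in db/db 16w. In WT the median difference of the 9 genes was 0.36, beside 0.15 over all genes. Of 9 progenitor genes tested in WT, db/db 8w and HFD, 1, 6 and 6 were past 2-fold higher in members and 0 lower. Over all genes 0.692%, 1.10% and 0.631% were past 2-fold higher there and 0.661%, 0.471% and 0.126% lower. In db/db 16w 0 of 5 were higher and 1 lower, beside 13.0% and 7.43% of all genes, so those counts do not set the list apart. The summed list differed by 0.20 in WT, 0.87 in db/db 8w, 0.90 in HFD and -0.56 in db/db 16w, and whether these differences differ between libraries was not tested. Pi16, which encodes a secreted peptidase inhibitor and marks the reticular progenitors, was at 2371 CPM in the WT members, 2310 CPM in db/db 8w, 1004 CPM in HFD and 13.6 CPM (2 UMIs) in db/db 16w, against 2124, 1046, 305 and 73.3 CPM in the other stromal barcodes. Sema3c, a secreted semaphorin, was at 899, 899 and 459 CPM in WT, db/db 8w and HFD against 416, 296 and 141 CPM, and had 0 UMIs in the db/db 16w members. With 0 set at the floor of 3 UMIs that is 44.1-fold below the WT members, and the exact upper limit of the log2 ratio was -5.16. Dpp4, a cell surface peptidase, was at 757, 435 and 224 CPM against 463, 192 and 82.8 CPM, with 2 UMIs in db/db 16w. Ly6a, the Sca-1 antigen, was the member of the list that was lower in the WT members, at 1371 against 1991 CPM.

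Counted by barcode, 78.9% of the WT members carried at least 30 per 10,000 UMIs of 7 progenitor genes, against 56.7% of the other stromal barcodes. The share was 51.8% against 20.7% in db/db 8w and 26.4% against 7.33% in HFD. Of the db/db 16w members 0 of 75 did so, which allows up to 4.00% at a floor of 3 barcodes and 4.80% as the exact upper limit, against 1.90%, so no difference was detectable at that number. In db/db 8w the progenitor-rich members held Creb5 at 1070 CPM and Nova1 at 380 CPM, and the remaining members at 288 and 187 CPM. In HFD Creb5 was at 1059 CPM in the 96 progenitor-rich members and 67.9 CPM in the 263 members that were neither progenitor-rich nor rich in mural genes, whereas Meg3 was at 2658 and 3420 CPM. Since each member had to reach 30 per 10,000 in the sum of the 4 genes, one low in Creb5 had to be high in another of them, and the opposite orders of Creb5 and Meg3 are set in part by the rule. In WT the contrast was smaller, with Creb5 at 939 and 624 CPM and Nova1 at 648 and 455 CPM. These kinds of barcode were defined after the values had been seen.

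Genes of committed preadipocytes were the lower counterpart in WT and db/db 8w. There 5 of 7 and 5 of 8 tested were past 2-fold lower in members, with 0 higher, beside 0.661% and 0.471% of all genes lower. In db/db 16w and HFD 0 of 7 and 0 of 8 were past 2-fold either way. Over all genes 13.0% were higher and 7.43% lower in db/db 16w, and 0.631% and 0.126% in HFD. Beside these shares the counts of 0 do not set the list apart. The sums differed by -1.11 in WT, -0.20 in HFD, -1.15 in db/db 8w and -0.06 in db/db 16w. Col4a1, a basement membrane collagen, was at 418 CPM in the WT members against 942 CPM in the other stromal barcodes, 1237 against 2648 CPM for db/db 8w, 3752 against 3057 CPM for db/db 16w and 2966 against 3119 CPM for HFD. Pparg, the nuclear receptor that directs adipocyte differentiation, was low in both classes, in the same order at 4.06 against 7.90, 9.30 against 23.7, 54.4 (8 UMIs) against 33.0 and 41.5 against 47.4 CPM. Genes of a Cilp, Eln and Apod fibroblast group differed in sum by -0.91 in WT, -0.37 in HFD, -0.49 in db/db 8w and -0.12 in db/db 16w. Apod, a lipid carrier, was at 209 against 532 CPM in WT and 260 against 559 CPM in db/db 8w. Of 4 genes of activated fibroblasts tested in db/db 16w, 1 was past 2-fold higher and 1 lower. Of the 7 tested in WT, db/db 8w and HFD, 0 were past 2-fold, which likewise does not set them apart. Ccl2, a monocyte chemoattractant, was at 320, 430 and 102 CPM there against 507, 499 and 135 CPM, with 0 UMIs in the db/db 16w members. A list of 20 genes of collagens and other matrix proteins differed in sum by -0.28 in WT, 0.15 in HFD, -0.20 in db/db 8w and 0.09 in db/db 16w. Of the 20, 4 were past 2-fold lower in WT and 3 in db/db 8w, beside 0.661% and 0.471% of all genes. In db/db 16w and HFD 0 were lower, beside 7.43% and 0.126%. None was past 2-fold higher in any library. The receptors of stromal cells differed by 0.37, 0.03, 0.26 and 0.57.

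In db/db 16w some of the members carried mural genes. There 12 of 75 (16.0%, 8.55 to 26.3%) carried at least 20 per 10,000 UMIs of 5 mural genes, against 1.36% of the other stromal barcodes. In HFD 6 of 364 did (1.65% against 0.999%), and in WT and db/db 8w 0 of 1573 and 0 of 1393, which allows up to 0.191% and 0.215% at the floor of 3 barcodes and 0.234% and 0.264% as exact upper limits. Those 12 barcodes had Rgs5, a regulator of G protein signalling that marks pericytes, at 12879 CPM, Pdgfrb at 2342 CPM, Pdgfra and Creb5 at 0 and Meg3 at 4683 CPM, on a median of 827 UMIs. They gave nearly all of the Rgs5 in the db/db 16w members, which was at 1128 CPM against 27.1 CPM, since the other 63 members had 7.45 CPM. Without mural-rich barcodes the mural list differed by -1.13 instead of 2.25. Haemoglobin transcripts, the main mRNAs of red cells, summed to 1219 CPM in the db/db 8w members against 508 CPM, to 197 against 3418 CPM in db/db 16w, and to 3.72 and 13.1 CPM in the WT and HFD members. The direction in db/db 8w was not stable, the log2 difference of 1.25 becoming -0.88 at a threshold of 50 per 10,000, -2.40 with Meg3 left out of the rule and -0.0949 after thinning to 1000 UMIs. Barcodes with at least 20 per 10,000 UMIs of these transcripts were 2.44% of the members there and 3.60% of the other stromal barcodes. The part of haemoglobin transcripts in the other values was not tested.

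**Figure D4:**
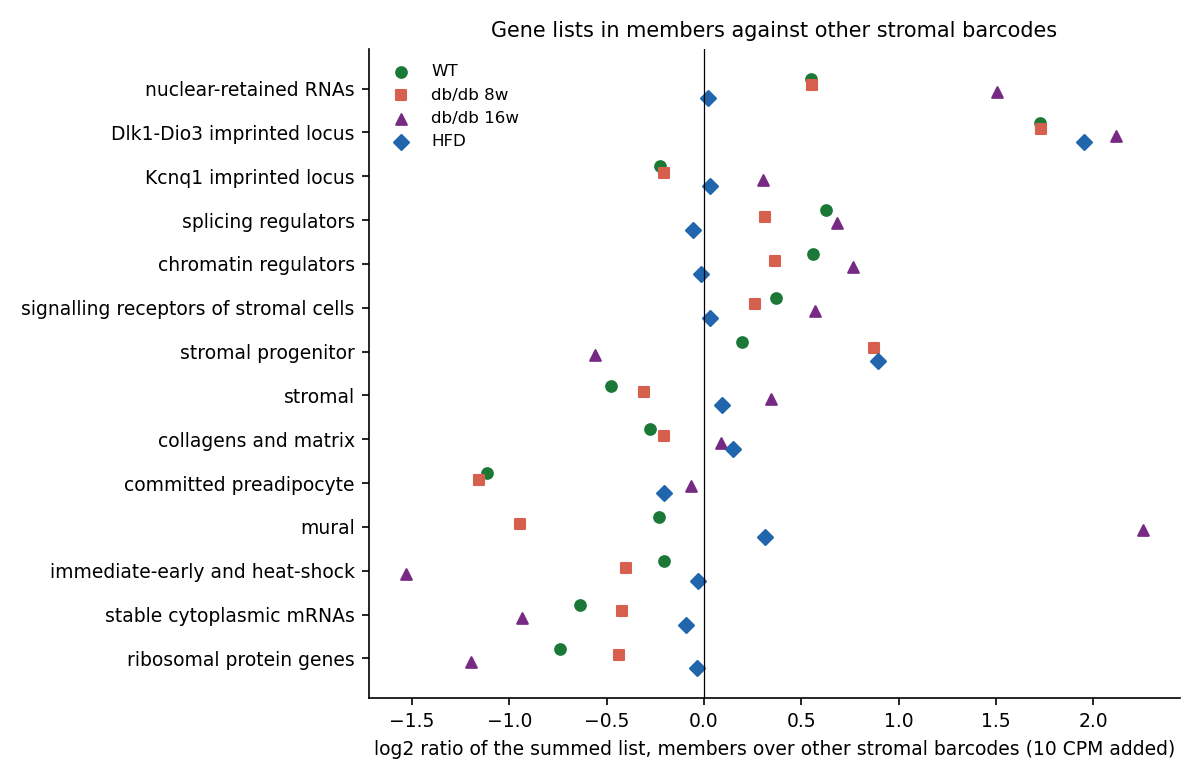
Difference of summed list levels between members and other stromal barcodes in each library, on the log2 scale with 10 CPM added to both sides, without error bars because there is 1 library per group. Nuclear-retained RNAs lie above 0.5 in WT, db/db 8w and db/db 16w and at 0.02 in HFD, progenitor genes are highest in db/db 8w (0.87) and HFD (0.90), and mural genes stand out in db/db 16w (2.25).

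Beyond the lists, 1184 of the 5213 genes were higher in the members of each library and 866 lower in each, mostly by small amounts. The genes higher in each had a median span of 55.8 kb and 26.6% of them spanned over 100 kb, against 27.4 kb and 14.7% of all 5213 genes and 8.48 kb and 1.73% of the genes lower in each. Ranked by their smallest difference over the libraries, Rian and B830012L14Rik were followed by Trio, a guanine nucleotide exchange factor for small GTPases. Trio was at 221 CPM in the WT members, 198 CPM in those of db/db 8w, 68.0 CPM in those of db/db 16w (10 UMIs) and 134 CPM in those of HFD, against 116, 87.3, 33.9 and 63.5 CPM. Its level was thus about 2-fold higher in the members of each library. Plagl1, another imprinted gene, encodes a zinc finger factor and was at 51.2, 66.4, 68.0 (10 UMIs) and 36.4 CPM against 29.2, 29.1, 28.7 and 17.2 CPM. Sulf1, an extracellular heparan sulfatase, was at 168, 265, 95.2 (14 UMIs) and 119 CPM against 106, 127, 61.5 and 71.1 CPM. The further genes of this group were Abca5, Chst1, Pde10a, Trim30d, Nhsl1, Gm50012, Plce1, Dcbld2 and Fam13c, whose differences ran from 0.51 for Fam13c in HFD to 1.78 for Chst1 in db/db 16w. They rested on 4 to 8 UMIs each in db/db 16w, and Chst1 stood at -0.13 there without the 12 mural-rich barcodes.

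The genes lower in the members of each library were short, with a median span of 5.15 kb for the 15 named against 68.3 kb for the 15 named as higher. Mmp3, a matrix metalloproteinase, was at 66.2 CPM in the WT members, 134 CPM in those of db/db 8w, 81.6 CPM in those of db/db 16w (12 UMIs) and 492 CPM in those of HFD, against 193, 309, 158 and 906 CPM. Cst3, the secreted protease inhibitor cystatin C, was at 392, 676, 2970 and 1445 CPM against 791, 1390, 4950 and 2137 CPM. G0s2, an inhibitor of triglyceride lipase, was at 7.22, 32.6, 54.4 (8 UMIs) and 115 CPM against 26.9, 94.8, 97.1 and 230 CPM. Mif, C2 and Cxcl13 were also among the 15 named. Icam1, an adhesion molecule carried by committed preadipocytes, was at 25.96, 37.4, 20.4 (3 UMIs) and 129 CPM against 62.2, 83.4, 35.4 and 200 CPM. Ccl7, a monocyte chemoattractant, was at 249, 268 and 54.1 CPM in WT, db/db 8w and HFD against 510, 416 and 83.4 CPM. It had 0 UMIs in the db/db 16w members, which is 8.09-fold lower there with 0 set at the floor of 3 UMIs. The others were AW112010, Stmn1, Rnaseh2c, Lgals3, Slc25a5, C1qbp and H2afz.

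Between libraries, the genes named as higher in the members of the obese mice than in the WT members included genes of lipid handling and matrix. Fabp4, the fatty acid binding protein of adipocytes and their precursors, was at 40.4 CPM in the WT members, 875 CPM in those of db/db 8w, 5825 CPM in those of db/db 16w and 4241 CPM in those of HFD. The log2 ratio to WT was 4.44 (4.28 to 4.60), 7.17 (6.99 to 7.35) and 6.71 (6.56 to 6.87), with intervals for counting error. Without the 12 mural-rich barcodes the db/db 16w level was 4988 CPM. Cd36, a fatty acid transporter, was at 23.2, 119, 551 and 690 CPM. Among matrix genes Mgp, an inhibitor of calcification, was at 14.7, 423, 999 and 1424 CPM, Sparcl1, a matricellular protein, at 19.5, 409, 3500 and 1389 CPM, and Bgn, a small proteoglycan, at 94.0, 925, 2651 and 2338 CPM. The basement membrane collagens Col15a1 and Col4a2 were at 18.7 and 119 CPM in WT, 869 and 1394 CPM in HFD, 244 and 575 CPM in db/db 8w, and 999 and 1930 CPM in db/db 16w. Col5a3, Nrep and S100a4 completed the 10 named as higher in each obese library. The other stromal barcodes moved the same way in each of these genes, with Fabp4 differing from WT there by 4.27 in HFD, 3.05 in db/db 8w and 4.89 in db/db 16w on the log2 scale with 10 CPM added, against 6.40, 4.13 and 6.86 in the members.

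The genes named as lower in the obese libraries included chemokines and other secreted factors. Cxcl13, a B cell chemoattractant, was at 1135 CPM in the WT members, 132 CPM in those of db/db 8w and 87.0 CPM in those of HFD, with log2 ratios of -3.11 (-3.22 to -3.00) and -3.71 (-3.93 to -3.49), and its 2 UMIs in those of db/db 16w gave -6.38 (-9.43 to -4.53). Fgl2, a fibrinogen-like prothrombinase, was at 846 CPM in WT, 56.1 CPM in HFD, 153 CPM for db/db 8w and 54.4 CPM (8 UMIs) for db/db 16w. Ptgs2, the inducible prostaglandin synthase, was at 349 CPM in WT, 65.7 CPM in HFD and 88.4 CPM in db/db 8w. Il1r2, the decoy receptor for interleukin 1, was at 222, 21.7 and 26.8 CPM in the same libraries. In the db/db 16w members Ptgs2, Il1r2, C7 and Cxcl10 had 0 UMIs. With 0 set at the floor of 3 UMIs they were 17.1-, 10.9-, 4.26- and 3.26-fold lower than in WT. The exact upper limits of their log2 ratios were -3.80, -3.14, -1.79 and -1.40. Plac8, Chrdl1, Vegfd and Pid1 completed the 10, and the other stromal barcodes were lower than WT in each of them too.

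**Figure D5:**
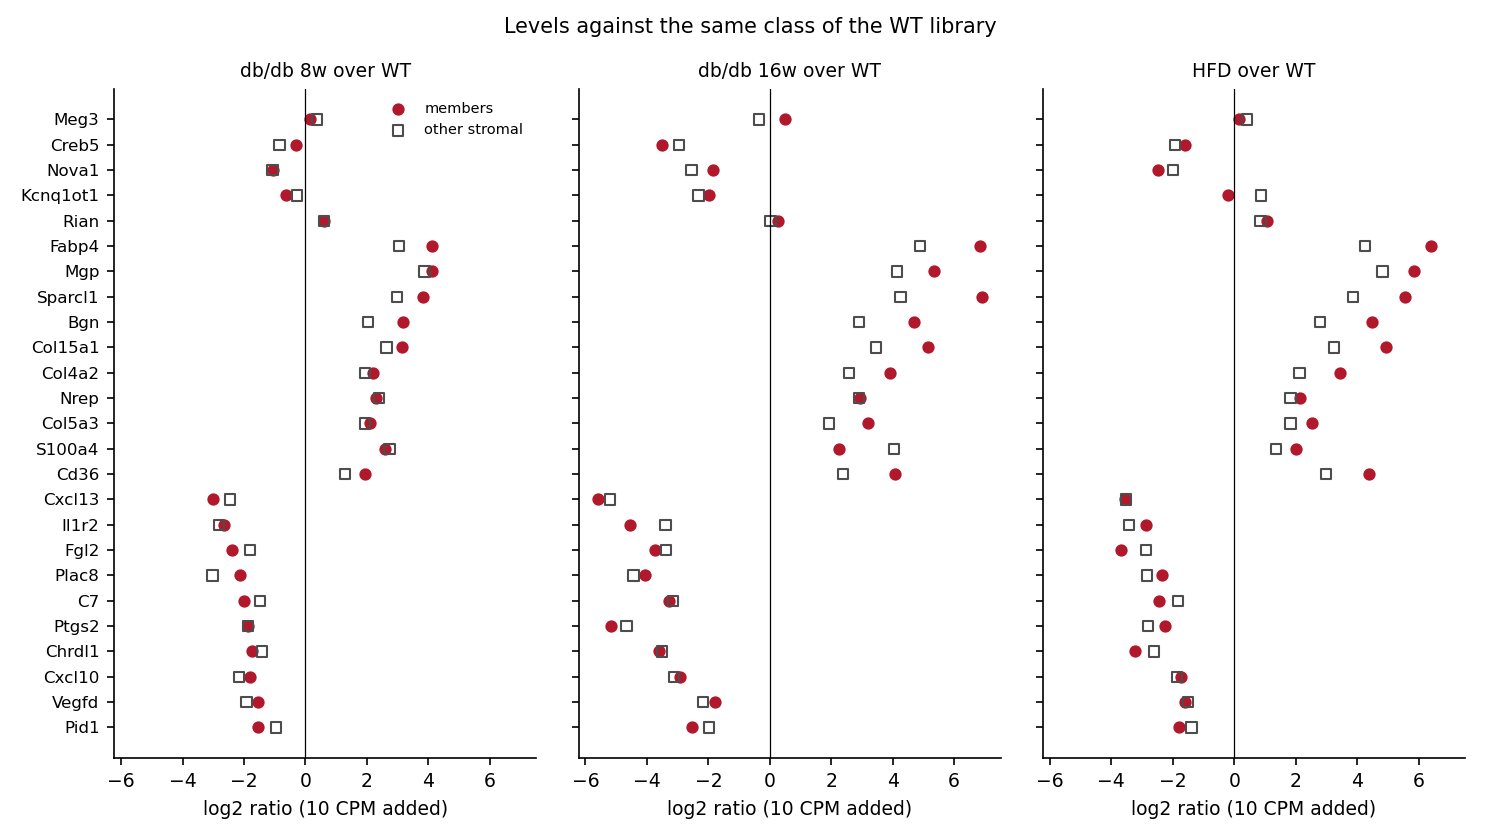
Log2 difference from the WT members, with 10 CPM added to both sides, of Meg3, Creb5, Nova1, Kcnq1ot1, Rian and the genes named as higher or lower in the members of the 3 obese libraries (filled), with the difference between the other stromal barcodes and those of WT beside it (open) and no replicate error because there is 1 library per group. Fabp4 is highest in HFD (6.40) and close to Sparcl1 in db/db 16w (6.86 and 6.89), and both classes lie on the same side of 0 except for Meg3 in db/db 16w and Kcnq1ot1 in HFD. Genes with 0 UMIs in db/db 16w are drawn with the 10 CPM added and their true ratio is not known.

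Over the 6527 to 7696 genes tested, 2.18% were past 2-fold higher and 1.47% lower than in WT in the db/db 8w members, 14.6% and 11.6% in db/db 16w, and 7.48% and 7.21% in HFD. The members of db/db 8w thus lay nearest to the WT members in these counts, although 75 members limit what db/db 16w can show. By lists, committed preadipocyte genes were higher than in the WT members by 3.05 in HFD, 1.45 in db/db 8w and 3.48 in db/db 16w, and the list of collagens and other matrix genes by 0.83, 0.48 and 1.05. Progenitor genes differed by -0.85, -0.09 and -3.37, so that in db/db 8w their summed level stayed close to WT while that of the preadipocyte genes was higher. The other stromal barcodes moved the same way from those of WT. Preadipocyte genes differed there by 2.14, 1.49 and 2.43, matrix genes by 0.40, 0.41 and 0.68, and progenitor genes by -1.55, -0.77 and -2.62. In db/db 8w the preadipocyte difference was thus about the same in both classes. Immediate-early and heat-shock genes differed by -0.45, -0.56 and -2.97 in the members and by -0.63, -0.36 and -1.64 in the other stromal barcodes. The macrophage list differed by 2.47, 1.03 and -0.69 in the members and by 2.50, 1.79 and 2.21 outside them. The mural list differed by 3.92, 0.61 and 6.55 in the members and by 3.37, 1.32 and 4.07 outside them. The part of both lists in the differences from WT was not tested. In the members Rian differed by 1.07, 0.61 and 0.27 and Kcnq1ot1 by -0.22, -0.62 and -1.97. Kcnq1ot1 was 1 of the 4 selecting genes, so its level in members depends in part on the rule. In the other stromal barcodes it differed from WT by 0.87 in HFD, -0.27 in db/db 8w and -2.32 in db/db 16w. Among progenitor-rich members it was at 871 CPM in WT, 936 CPM in HFD and 623 CPM in db/db 8w, so HFD was not below WT there. Rian was higher in HFD and db/db 8w, while the ratio in db/db 16w had a counting interval of -0.13 to 0.66 (57 UMIs), which includes 0.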

How the data were processed

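The deposited values were UMI counts in whole numbers for each gene in each barcode, made by the authors from 10x Genomics 3′ libraries with Cell Ranger (7.1.0 in the submitters' processing notes, 6.0.0 in the file headers) on mm10, 1 file per library of 3 pooled mice, with called barcodes before any filter. Whether introns were counted is not given in the sources used here. The columns of the 4 files were matched by gene ID, and 99.6% of 32285 IDs were found in the GRCm38 annotation.

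Counts were summed over the members of a library and divided by the members' total to give CPM. Log2 differences had 10 CPM added to both sides, except ratios with intervals, which had none added. A gene was tested against the 2-fold limit when it reached 20 CPM in either class. Macrophage-rich barcodes had at least 100 per 10,000 UMIs of Lyz2 and the C1q genes. Shares were given exact Clopper-Pearson intervals and ratios exact conditional binomial intervals (95%, scipy 1.17.1). They cover counting error only. With 1 library per group there was no test between groups. Scrublet (scanpy 1.11.5) scored doublets, the highest scores being taken down to the expected rate, and kept. The scripts were tested on simulated data (Python 3.11.15).

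Members and gene lists were chosen with earlier results of these data known. The genes named were the list members with the most UMIs, the 15 higher and 15 lower in members of all 4 libraries with the largest smallest difference, and the 10 higher and 10 lower than WT in all 3 obese libraries by the same measure, among 6063 genes. Others, such as Sema3c, Dpp4, Pparg, Neat1, Cdkn1c, Dlk1, Dio3, Ccl2, Apod, H19, Creb1 and Atf7, were named after their values were seen. A gene that met the naming rule is not reported here.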

Additional observations from a re-analysis of the deposited data

Results flagged for a closer look

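Both lists below were singled out because the members differed from the other stromal barcodes in opposite directions in different libraries, and whether those differences differ was not tested. Progenitor genes were higher in the members of db/db 8w (summed log2 difference 0.87) and HFD (0.90) and lower in those of db/db 16w (-0.56), where the list rested on 107 UMIs in members. Haemoglobin genes were higher in the db/db 8w members (1.25) and lower in the db/db 16w members (-4.05), where members had 29 UMIs of them. The db/db 8w direction was the opposite at a threshold of 50 per 10,000 (-0.88), with Meg3 left out of the rule (-2.40) and after thinning (-0.0949), and barcodes rich in haemoglobin transcripts were 2.44% of its members against 3.60% of its other stromal barcodes.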

How the results depend on the processing

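No paired analysis was possible because each group was 1 library. The order of the member shares (WT highest, then db/db 8w, HFD and db/db 16w) held under each alternative. For WT, then db/db 8w, db/db 16w and last HFD the shares were 38.7, 19.3, 2.69 and 12.4% at a threshold of 20 per 10,000, 13.1, 4.54, 0.394 and 1.67% at 50, 10.7, 2.33, 0.0171 and 0.568% with Meg3 left out, and 32.0, 16.8, 2.42 and 9.24% after thinning to 1000 UMIs. They became 25.3% in WT and 0.685% in db/db 16w from 2000 UMIs, 28.9, 11.2 and 4.50% in WT, db/db 8w and HFD without the mitochondrial limit, and, in db/db 8w, 13.4% without the macrophage and endothelial limits and 12.8% without predicted doublets.

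The log2 difference of the summed nuclear-retained RNAs, in the same order, was 0.44, 0.45, 1.47 and 0.0554 at 20 per 10,000, and 0.68, 0.80 and 1.59 in WT, db/db 8w and db/db 16w at 50. With Meg3 left out it was 0.76 in WT, 0.17 in HFD and 0.91 in db/db 8w. Other values were 0.46, 0.53, 0.98 and 0.0350 for the mean of each barcode's share, 0.58, 0.56, 1.44 and -0.0108 without doublets, 1.32, 0.72, 1.83 and 0.10 without Gm42418 and AY036118, 0.17, 0.39 and 0.78 (not HFD) reweighted to the members' depth, and 0.36 and 0.43 in WT and db/db 8w thinned. From 2000 UMIs it was 0.53 in db/db 8w and 1.77 in db/db 16w. It was 0.60, 1.54 and 0.14 outside WT without the macrophage and endothelial limits, 0.58 and 0.10 in db/db 8w and HFD without the mitochondrial limit, and 0.56 in WT with a floor of 100 per 10,000 for other stromal barcodes.

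Genes past 2-fold from WT numbered 142 higher and 96 lower in db/db 8w, 1124 and 894 in db/db 16w, and 512 and 493 in HFD. At 100 CPM or more, with fewer genes tested, they were 65 and 48, 359 and 333, and 219 and 234. With 1 CPM added in place of 10, the lower genes were 177 in db/db 8w and 767 in HFD.

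Reversed signs were haemoglobin genes in db/db 8w (-0.88 at 50, -2.40 with Meg3 left out, -0.0949 thinned), Plagl1 in db/db 16w (-0.0233 at 50), neuronal genes in db/db 16w (-0.64 from 2000 UMIs), and, without mural-rich barcodes, Chst1 (-0.13) and, by construction, mural genes (-1.13) in db/db 16w. Save for the last 2, the cause was not tested. Leaving out Gm42418 or mural-rich barcodes was chosen after seeing the data. Pools of mice, age and library preparation cannot be told apart from genotype or diet, nor can sex in comparisons with db/db 16w, given its Xist. The 75 members (147127 UMIs) limit each value of db/db 16w.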
